A study of Homo sapiens with 4 samples.

Results

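The 68 genes described here encode acyl-CoA, ketone body and monocarboxylate proteins. They are the protein-coding genes of RefSeq GRCh38, chromosomes 1 to 22 and X, with a symbol made of one of 16 family prefixes (ACSL, ACSM, ACSS, ACSF, ACSBG, ACAD, ACOX, ACAT, ACAA, CPT1, CPT2, HMGC, OXCT, BDH, SLC16A, SLC27A) and further letters or digits. They were taken from 19974 protein-coding genes by symbol, and the families were picked with earlier results of these data known. CPT2 itself has nothing after its prefix and so was no member.

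Cells burn fatty acids only after import and activation to acyl-CoA. SLC27A proteins and acyl-CoA synthetases of the ACSL, ACSBG, ACSF, ACSM and ACSS families do this for long, medium and short chains, and CPT1 enzymes pass long chains to carnitine for entry into mitochondria. Acyl-CoA dehydrogenases (ACAD) and peroxisomal oxidases (ACOX) open each round of beta-oxidation, and thiolases (ACAA, ACAT) close it. Ketone bodies are made from acetyl-CoA in liver mitochondria, are carried by SLC16A transporters, and are turned back into acetyl-CoA with the help of BDH1 and OXCT1. The proximal tubule of the kidney is known for its reliance on fatty acid oxidation, and it takes up lactate and ketone bodies. Beta-hydroxybutyrate, the main circulating ketone body, can also be attached to histone lysines as beta-hydroxybutyrylation.

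H3K4bhb, this mark on lysine 4 of histone H3, was mapped in HK-2, a cultured line of human proximal tubule cells, by ChIP-seq, the sequencing of immunoprecipitated chromatin. One group was exposed to hydrogen peroxide (H2O2) and the sodium salt of beta-hydroxybutyrate (BHBNa), the other to H2O2 without BHBNa. Both groups were HK-2 cells and both received H2O2, and cells without H2O2 were not analysed here. The sources used here give neither doses nor times. A treatment was represented by 1 immunoprecipitated (IP) library with its 1 control, an IgG library by title and an input by library name. Each treatment had 1 peak list, deposited under its control sample and taken here as the peaks of its IP library. No comparison therefore has a replicate check or a test, and all values describe these libraries. Expression was not analysed here, so the cell label could not be set against marker genes.

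The H2O2 + BHBNa list held 11510 peaks and the H2O2 list 6251. The lowest control background at a peak, which peak callers of the MACS2 kind set on the scale of the IP depth, was 0.102 fragments in the H2O2 + BHBNa list and 0.274 in the H2O2 list, a ratio of 2.68 for H2O2 over H2O2 + BHBNa. Peaks rested on few fragments, with a median of 2 IP fragments at the summit in the H2O2 + BHBNa list and 4 in the H2O2 list. The fragment numbers follow from the deposited fold enrichment and p of each peak, as set out under the processing.

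Promoter sequences are given for 5 members on whose peaks the results turn, so that the starts, none of which carried a peak, can be set beside the peaks of the same genes. ACOX3 and HMGCLL1 had H2O2 + BHBNa peaks with an adjusted p (q) no higher than 0.05, ACSM4 and ACSL4 had H2O2 peaks with such a q, and the SLC16A7 peak came closest to a start. All are RefSeq sequence of GRCh38.p14, 5′ to 3′ on the coding strand, with each CpG in capitals.
ACOX3, chr4:8428399-8428698, minus strand, with 33 CpGs: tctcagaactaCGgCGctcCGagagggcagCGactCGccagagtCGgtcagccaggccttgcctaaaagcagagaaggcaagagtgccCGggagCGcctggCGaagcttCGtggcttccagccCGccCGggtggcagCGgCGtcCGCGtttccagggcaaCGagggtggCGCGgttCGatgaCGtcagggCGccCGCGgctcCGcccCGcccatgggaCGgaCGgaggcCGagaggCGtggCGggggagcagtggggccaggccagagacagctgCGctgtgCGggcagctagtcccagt
HMGCLL1, chr6:55579143-55579442, minus strand, with 20 CpGs: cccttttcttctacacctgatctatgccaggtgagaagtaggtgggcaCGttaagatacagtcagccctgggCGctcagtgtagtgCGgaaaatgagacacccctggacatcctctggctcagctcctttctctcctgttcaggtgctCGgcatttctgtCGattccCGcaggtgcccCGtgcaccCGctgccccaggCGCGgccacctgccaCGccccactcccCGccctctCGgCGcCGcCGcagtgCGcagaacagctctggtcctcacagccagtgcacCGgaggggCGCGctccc
ACSM4, chr12:7303822-7304121, plus strand, with 3 CpGs: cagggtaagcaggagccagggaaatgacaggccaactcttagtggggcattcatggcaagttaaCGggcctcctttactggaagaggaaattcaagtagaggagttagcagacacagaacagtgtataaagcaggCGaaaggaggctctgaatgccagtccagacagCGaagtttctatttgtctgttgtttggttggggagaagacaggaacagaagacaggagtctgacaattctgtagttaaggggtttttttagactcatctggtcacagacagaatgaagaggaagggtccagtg
ACSL4, chrX:109733208-109733507, minus strand, with 51 CpGs: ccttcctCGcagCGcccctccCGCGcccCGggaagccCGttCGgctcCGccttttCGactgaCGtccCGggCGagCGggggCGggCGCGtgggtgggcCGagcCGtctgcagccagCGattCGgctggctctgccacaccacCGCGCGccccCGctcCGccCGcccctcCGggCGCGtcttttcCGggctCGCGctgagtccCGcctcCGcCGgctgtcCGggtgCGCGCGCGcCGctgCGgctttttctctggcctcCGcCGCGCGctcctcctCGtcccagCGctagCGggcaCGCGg
SLC16A7, chr12:59595779-59596078, plus strand, with 21 CpGs: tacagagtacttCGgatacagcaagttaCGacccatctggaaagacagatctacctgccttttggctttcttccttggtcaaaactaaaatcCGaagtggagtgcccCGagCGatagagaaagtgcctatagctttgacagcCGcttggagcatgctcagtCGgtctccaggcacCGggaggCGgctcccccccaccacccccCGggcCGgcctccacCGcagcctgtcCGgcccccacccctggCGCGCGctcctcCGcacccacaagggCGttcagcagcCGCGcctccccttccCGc

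A peak was given to a gene if its summit fell inside the annotated span or no more than 1 kb outside. Peaks of the H2O2 + BHBNa list were found this way at 11 of 68 members, 16.2% (95% Wilson interval 9.28 to 26.7, counting error only), against 15.5% of all genes. In the H2O2 list 10 of 68 members had one, 14.7% (8.19 to 25), against 8.00% of all genes. Genes with an H2O2 + BHBNa peak had a median length of 123 kb and those without one 18.5 kb, and the members had a median length of 37.6 kb against 24.2 kb over all genes. When each member was set beside the 200 other genes nearest to it in length, those genes gave 11.3 members with a peak in the H2O2 + BHBNa list and 5.35 in the H2O2 list. The H2O2 + BHBNa count therefore stood beside its like-length value, and the H2O2 count stood above it. With peaks of at least 3 fragments required of both lists, the counts were 5 members in the H2O2 + BHBNa list, where like-length genes gave 5.79 and 8.46% of all genes had one, and the same 10 against 5.35 in the H2O2 list, where 8.00% had one. All H2O2 peaks had 3 or more fragments. The part of depth in the difference between the lists was not tested.

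**Figure D1:**
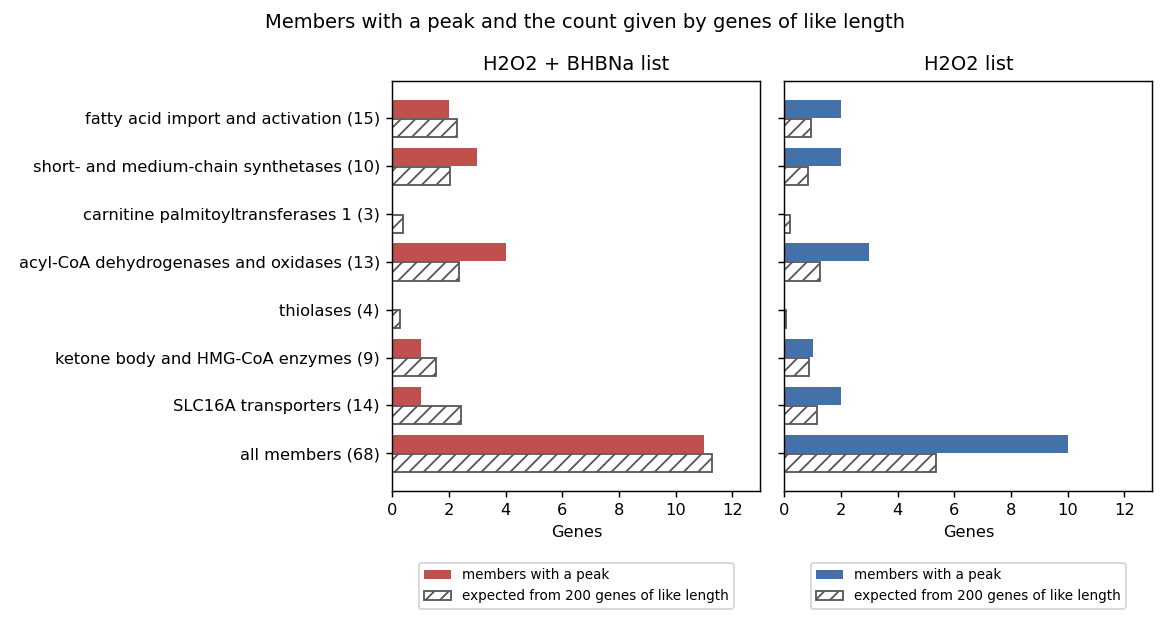
Members with a peak (filled bars) and the number expected from the 200 genes nearest in length to each member (hatched bars), by role, with the number of members in brackets; the horizontal axis counts genes. Over all 68 members the filled and hatched bars stand at 11 and 11.3 in the H2O2 + BHBNa list and at 10 and 5.35 in the H2O2 list.

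Of the 68 members, 19 had a peak in at least 1 list, 2 had one in both, and 49 had none. The share of all genes with a peak in at least 1 list is not given here, so 19 and 49 stand as counts only. Over all genes 4.35% had a peak in both lists, and genes of like length gave 2.11 members in both. The 12 member peaks of the H2O2 + BHBNa list had a median fold enrichment of 2.97 (2.59 to 4.78), and the 4855 peaks in or near any gene had 2.72. The 11 member peaks of the H2O2 list had a median fold of 3.77 (2.97 to 5.74), against 3.48 over 2367 peaks in or near genes. Fold values of the lists are not compared with each other, since the value that a given fragment number yields depends on the depth. Of the member peaks of the H2O2 + BHBNa list, 6 of 12 rested on exactly 2 fragments, close to the 53% of all its peaks in or near genes. No member peak of the H2O2 list had fewer than 3.

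**Figure D2:**
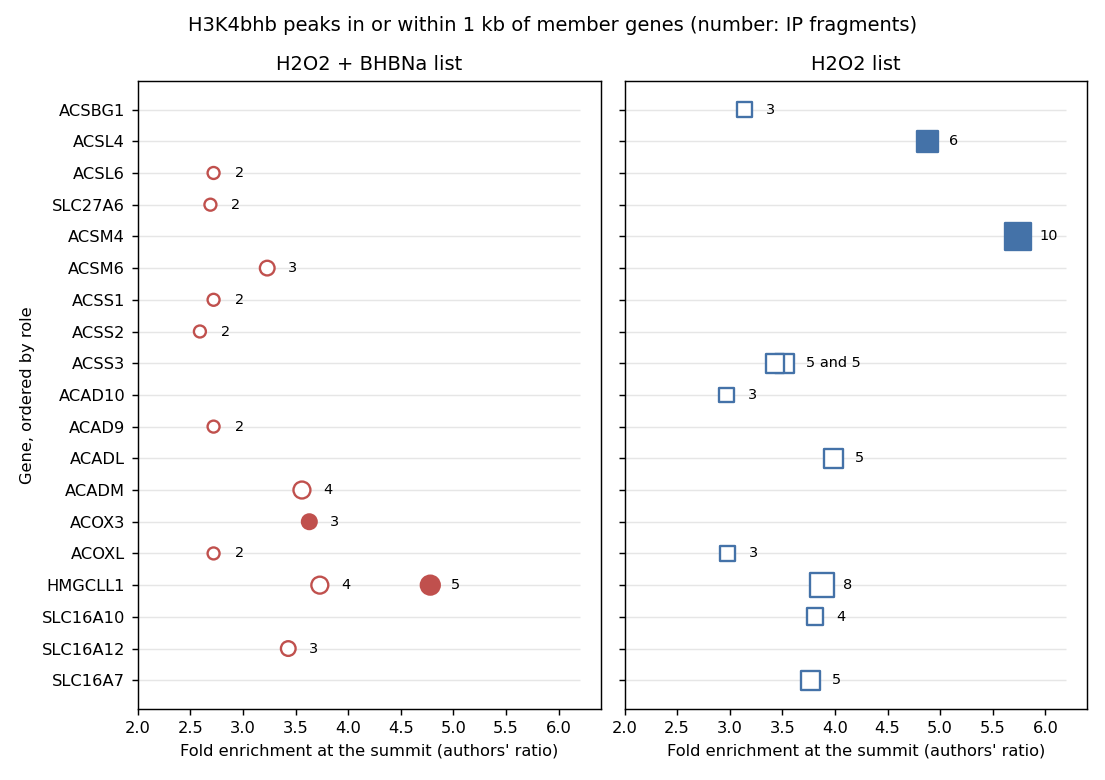
Authors' fold enrichment (horizontal axis) of each member peak in the H2O2 + BHBNa list (left, circles) and the H2O2 list (right, squares), by gene. Symbol area and the number beside it give IP fragments at the summit, and filled symbols have q at or under 0.05: ACOX3 and HMGCLL1 on the left, ACSM4 and ACSL4 on the right.

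In the H2O2 + BHBNa list 2 of 68 members had a peak whose q did not exceed 0.05, ACOX3 and HMGCLL1, where 3.16% of all genes reached it. In the H2O2 list there were also 2 of 68, ACSM4 and ACSL4, against 0.766% of all genes. The ACSM4 summit lay 120 bp outside its span and within CD163L1, which is no member, so that peak cannot be given to ACSM4 alone. The q limit asks for different evidence in the lists. At the lowest background, 3 fragments gave a q of 0.0484 in the H2O2 + BHBNa list and 0.494 in the H2O2 list, where 5 fragments gave 0.035.

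**Figure D3:**
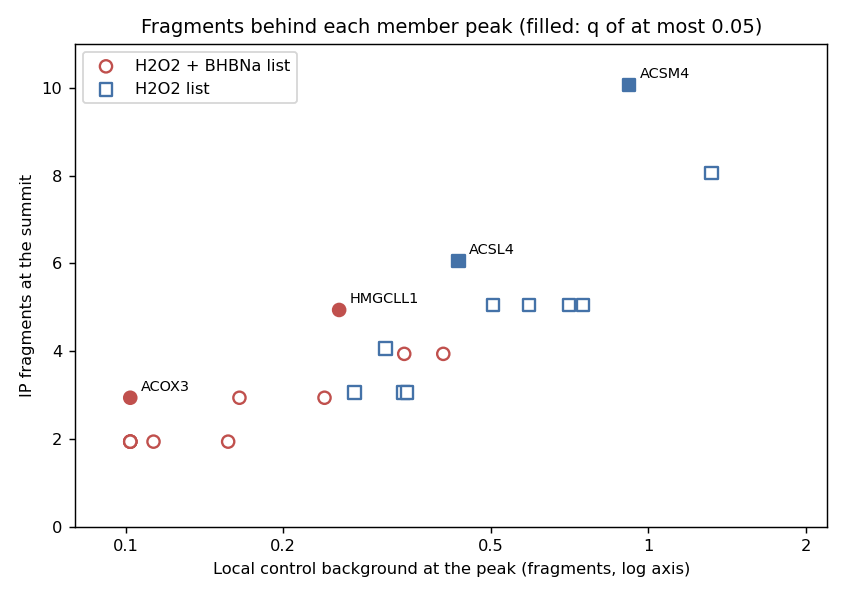
IP fragments at the summit (vertical axis) against the local control background at the peak (horizontal axis, log scale, in fragments) for the 12 member peaks of the H2O2 + BHBNa list (circles) and the 11 of the H2O2 list (squares), with filled symbols at q at or under 0.05. The 4 peaks of 2 fragments at a background of 0.102 (ACOXL, ACAD9, ACSL6, ACSS1) lie on top of each other, and all H2O2 peaks lie at backgrounds of 0.274 or more.

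Among the enzymes of ketone body and HMG-CoA metabolism, 1 of 9 members had a peak, in both lists: HMGCLL1, a lyase that splits HMG-CoA outside mitochondria. Genes of like length gave 1.53 members in the H2O2 + BHBNa list and 0.875 in the H2O2 list. HMGCLL1 spans 245 kb of chromosome 6 (55434373 to 55678919) and is the second longest of the 68. Its strongest H2O2 + BHBNa peak, at 55654106 to 55654480, had 5 fragments (exact 95% Poisson interval 1.62 to 11.7), 4.78-fold enrichment and q = 0.00658. Another H2O2 + BHBNa peak in the gene, at 55509868 to 55510126, had 4 fragments, 3.73-fold enrichment and q = 0.117. Its H2O2 peak, at 55444309 to 55444547, had 8 fragments (3.45 to 15.8), 3.88-fold enrichment and q = 0.179, over a background 4.81 times the lowest of that list. The H2O2 summit lay 65.5 and 210 kb from the H2O2 + BHBNa summits, so the lists placed their peaks at different sites of the gene. Of genes as long as HMGCLL1, 57.5% held an H2O2 + BHBNa peak and 42% an H2O2 peak.

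The other 8 ketone body and HMG-CoA genes had no peak in or near them. BDH1, which interconverts acetoacetate and beta-hydroxybutyrate, had its nearest summit 121 kb away in the H2O2 + BHBNa list and 125 kb away in the H2O2 list. OXCT1, which activates acetoacetate to its CoA form, had a summit 3.29 kb beyond its 3′ end in the H2O2 list, with 4 fragments, 3.3-fold enrichment and q = 0.494, and none within 53.6 kb in the H2O2 + BHBNa list. HMGCS1, the cytosolic HMG-CoA synthase of sterol synthesis, BDH2 and OXCT2 had no summit nearer than 29.1 kb in either list. The 8 genes span 1.83 to 140 kb.

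Acyl-CoA dehydrogenases and oxidases had peaks at 4 of 13 members in the H2O2 + BHBNa list, where genes of like length gave 2.34, and at 3 of 13 in the H2O2 list, against 1.25. ACOX3, a peroxisomal oxidase of branched-chain acyl-CoA, held an H2O2 + BHBNa peak at chromosome 4, 8421980 to 8422311, with 3 fragments (0.619 to 8.77), 3.63-fold enrichment and q = 0.0484 over the lowest background. It had no H2O2 summit within 1553 kb. ACADM, the medium-chain dehydrogenase, held a 663 bp H2O2 + BHBNa peak, the widest of the member peaks, at chromosome 1, 75736634 to 75737296. Its fold was 3.56 and its q 0.186, from 4 fragments over 3.96 times the lowest background. ACAD9, known also as an assembly factor of complex I, held an H2O2 + BHBNa peak of 2 fragments, with 2.72-fold enrichment and q = 0.326.

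ACADL, the long-chain dehydrogenase, held an H2O2 peak at chromosome 2, 210188229 to 210188506, with 5 fragments, 3.99-fold enrichment and q = 0.18. RefSeq places ACADL on the minus strand, so this summit, 410 bp inside the lower end, lay at the 3′ end of the gene, 37.1 kb from its listed start. ACAD10 held an H2O2 peak with 3 fragments, 2.97-fold enrichment and q = 0.494. ACOXL, an oxidase-like gene and at 386 kb the longest member, held a peak in each list. The H2O2 + BHBNa peak had a fold of 2.72 from 2 fragments, and the H2O2 peak a fold of 2.98 from 3, with 125 kb between the summits. Of genes of its length, 71.5% held an H2O2 + BHBNa peak and 51% an H2O2 peak. The 7 members of these families without a peak, among them ACAD8, ACAD11, ACADS, ACADSB, ACADVL and ACOX2, span 8.14 to 102 kb.

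Short- and medium-chain synthetases had peaks at 3 of 10 members in the H2O2 + BHBNa list, where genes of like length gave 2.04, and at 2 of 10 in the H2O2 list, against 0.835. No gene was in both lists, where genes of like length gave 0.33, so this count of 0 tells little. Both acetyl-CoA synthetases that make acetyl-CoA from acetate, ACSS1 in mitochondria and ACSS2 in the cytosol and nucleus, had an H2O2 + BHBNa peak of 2 fragments. Their folds stood at 2.72 for ACSS1 and 2.59 for ACSS2, and the ACSS2 fold was the lowest of the member peaks in this list. ACSS3, a mitochondrial relative that prefers propionate, had 2 H2O2 peaks 2.16 kb apart, both also inside the antisense RNA gene ACSS3-AS1. The ACSS3 peaks had folds of 3.52 and 3.43, from 5 fragments each, and q of 0.364 and 0.407. ACSM6, of the medium-chain family, had an H2O2 + BHBNa peak with 3 fragments, 3.23-fold enrichment and q = 0.258, 1.71 kb inside its 3′ end and within the long noncoding RNA gene LOC107984257.

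ACSM4, a medium-chain synthetase gene of 24.6 kb, had the highest fold of the H2O2 member peaks and the most fragments of any member peak. The H2O2 peak at chromosome 12, 7328712 to 7329056, had 10 fragments (4.8 to 18.4), 5.74-fold enrichment and q = 0.000772, over a background 3.35 times the lowest. RefSeq places ACSM4 on the plus strand, and the summit lay 120 bp beyond its 3′ end, with 8 bp of the peak inside the span. The summit also lay within another protein-coding gene, CD163L1, so the peak cannot be given to 1 gene. It was the 1 member peak with a summit outside the span and the 1 peak shared with a protein-coding gene that is no member. The nearest H2O2 + BHBNa summit was 528 kb away. ACSM1, ACSM2A, ACSM2B, ACSM3 and ACSM5, which neighbour each other on chromosome 16, had no summit within 107 kb in either list and span 31.8 to 123 kb. ACSM2A and ACSM2B are near-identical copies, so reads that fit both could be split between them or lost.

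Genes of fatty acid import and activation had peaks at 2 of 15 members in each list, where genes of like length gave 2.29 in the H2O2 + BHBNa list and 0.95 in the H2O2 list. ACSL4, which favours arachidonic acid and is known from ferroptosis, held an H2O2 peak at X chromosome positions 109686782 to 109687132, with 6 fragments (2.2 to 13.1), 4.88-fold enrichment and q = 0.03. The nearest H2O2 + BHBNa summit lay 30.5 kb outside the gene and 76.7 kb from the H2O2 summit. ACSBG1, a very-long-chain synthetase best known from brain, held an H2O2 peak with 3 fragments, 3.14-fold enrichment and q = 0.494. ACSL6, a long-chain synthetase also known from brain, and SLC27A6, a fatty acid transport protein, each held an H2O2 + BHBNa peak of 2 fragments, with folds of 2.72 and 2.69 and a q of 0.326. ACSL1, a main long-chain synthetase of oxidative tissues, lay just outside the 1 kb limit. Its H2O2 + BHBNa summit, 1.29 kb beyond the lower end, which is the 3′ end of this minus-strand gene, had 3 fragments, 3.55-fold enrichment and q = 0.0623. ACSL1, ACSL3, ACSL5, ACSBG2, ACSF2, ACSF3 and SLC27A1 to SLC27A5, the 11 genes of import and activation without a peak, span 4.75 to 83.6 kb.

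The SLC16A family had a peak at 1 of 14 members in the H2O2 + BHBNa list, where genes of like length gave 2.44, and at 2 of 14 in the H2O2 list, against 1.17. SLC16A7 encodes MCT2, a high-affinity carrier of pyruvate, lactate and ketone bodies. Its H2O2 peak, at chromosome 12, 59597235 to 59597525, had 5 fragments, 3.77-fold enrichment and q = 0.245. The summit lay 1.25 kb inside the gene from its upstream start, the nearest to a listed start of all member peaks. SLC16A10, a carrier of aromatic amino acids, held an H2O2 peak with 4 fragments, 3.81-fold enrichment and q = 0.193. SLC16A12, a creatine transporter, held an H2O2 + BHBNa peak with 3 fragments, 3.43-fold enrichment and q = 0.11. SLC16A1 and SLC16A3, which encode the widely expressed lactate carriers MCT1 and MCT4, had none. Their nearest H2O2 + BHBNa summits were 98.6 and 350 kb away, and their nearest H2O2 summits 429 and 3457 kb away. The SLC16A genes without a peak included SLC16A1, SLC16A3, SLC16A4, SLC16A5, SLC16A6, SLC16A8, SLC16A9, SLC16A11, SLC16A13 and SLC16A14, which span 2.47 to 59.3 kb.

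The carnitine palmitoyltransferases CPT1A, CPT1B and CPT1C and the thiolases ACAA1, ACAA2, ACAT1 and ACAT2 had no peak in either list. Genes of like length gave 0.375 and 0.26 members for these families in the H2O2 + BHBNa list, and 0.205 and 0.06 in the H2O2 list, so counts of 0 tell little. CPT1A, the main CPT1 form of liver and kidney, had the most distant H2O2 + BHBNa summit of the 68 genes, at 1166 kb. Among the longest members without a peak were OXCT1 (140 kb), ACSM3 (123 kb), ACAD11 (102 kb) and CPT1A (89.7 kb). Of genes of their lengths, 29% to 43.5% held an H2O2 + BHBNa peak and 14.5% to 22.5% an H2O2 peak. Members with a peak had a median length of 62.2 kb in the H2O2 + BHBNa list and 118 kb in the H2O2 list, and members without one 33.9 and 34.3 kb.

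No member peak of one list overlapped a member peak of the other. The share of all peaks that overlap between the lists is not given here. The lack of overlap therefore cannot be called particular to the members, and the same holds for the distances between summits. From the member summits of the H2O2 + BHBNa list the nearest H2O2 summit anywhere was 58.4 to 1620 kb away (median 168), and from those of the H2O2 list the nearest H2O2 + BHBNa summit was 65.5 to 819 kb away (median 142). Measured from the gene spans, the nearest H2O2 + BHBNa summit was at a median of 100 kb over the 68 members and 90.6 kb over all genes. The nearest H2O2 summit was at a median of 212 kb over the members and 320 kb over all genes. Within 10 kb of the span, peak-holding genes included, were 19.1% of members and 19.9% of all genes in the H2O2 + BHBNa list, and 16.2% of members and 9.53% of all genes in the H2O2 list.

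**Figure D4:**
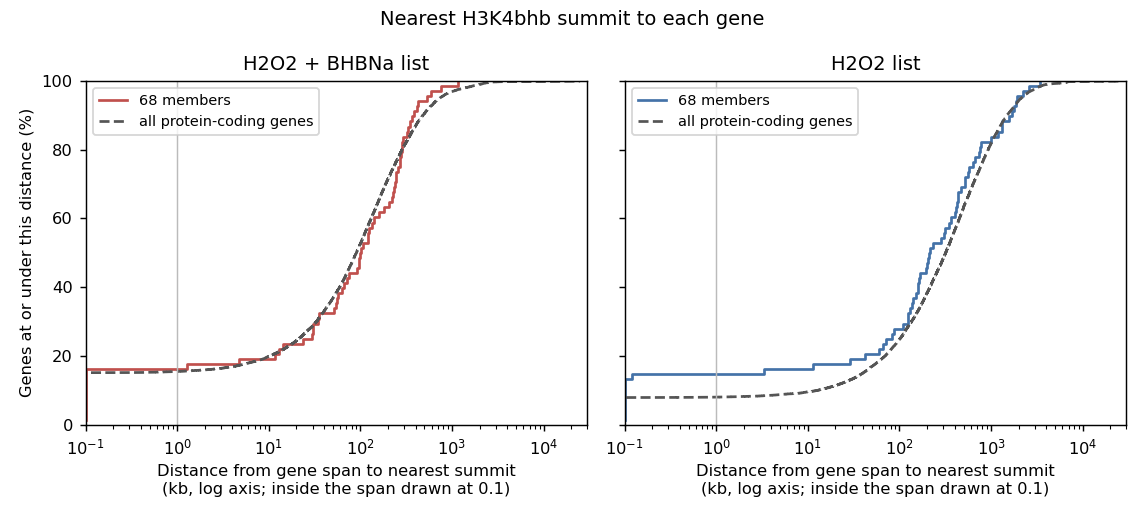
Cumulative share of genes (vertical axis, %) by distance from the annotated span to the nearest summit (horizontal axis, kb, log scale, summits inside the span drawn at 0.1) for the 68 members (solid line) and all protein-coding genes (dashed line), with the 1 kb limit as a grey line. The lines run close together in the H2O2 + BHBNa list, with medians of 100 and 90.6 kb, and in the H2O2 list the medians are 212 and 320 kb.

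The position of member peaks was also set against starts of transcription. RefSeq start positions and strands were at hand for 50 of the 68 members. None of these 50 had a peak overlapping a promoter window (250 bases before to 50 after a listed start) in either list, where 0.0759% of 15813 genes had one in the H2O2 + BHBNa list and 0.0126% in the H2O2 list. Within 2 kb of a listed start there was a summit at 0 of 50 members in the H2O2 + BHBNa list, against 1.01% of genes, and at 1 of 50, SLC16A7, in the H2O2 list, against 0.386%. With so few genes of any kind at this distance, 0 of 50 cannot be told from the background. Measured from the start of the span as a share of its length, the 12 H2O2 + BHBNa summits lay at 10.1% to 95.1% (median 50.5%) and the 9 H2O2 summits with a known strand at 0.647% to 100% (median 61.7%), with ACSM4, just beyond the end, counted at 100%. Nearest to the 3′ end were ACSM6 in the H2O2 + BHBNa list, at 95.1%, and ACSM4, ACADL and HMGCLL1 in the H2O2 list, at 100%, 98.9% and 95.9%. Nearest to the start were HMGCLL1 in the H2O2 + BHBNa list, at 10.1%, and SLC16A7 in the H2O2 list, at 0.647%. Positions over all peaks in genes are not given here, so no lean towards either end can be read from these values.

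**Figure D5:**
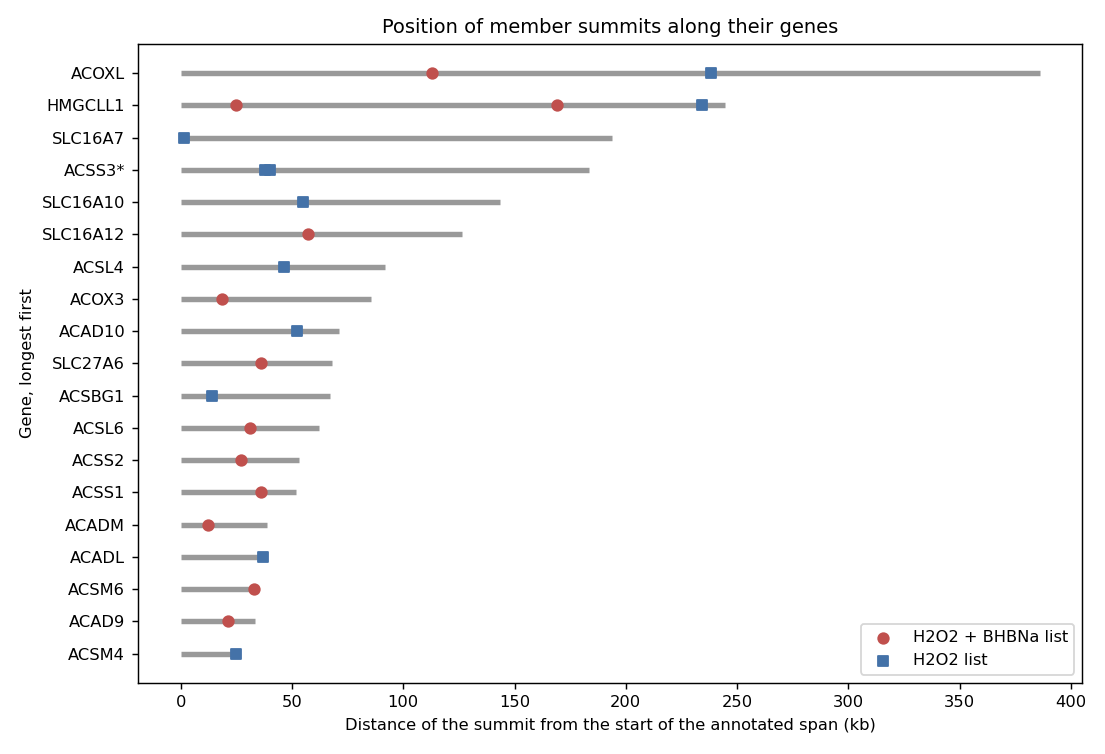
Summits of the H2O2 + BHBNa list (circles) and the H2O2 list (squares) along the 19 members with a peak, each grey bar being the annotated span; the horizontal axis is the distance from the start of the span in the direction of transcription, in kb (for ACSS3, marked with an asterisk, from the lower coordinate). ACOXL and HMGCLL1 hold summits of both lists at separate positions, and the SLC16A7 summit lies 1.25 kb from the start of the span.

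From the 5 starts whose promoters are shown, the nearest H2O2 + BHBNa summits were 6.23 kb away for ACOX3, 69.2 kb for HMGCLL1, 552 kb for ACSM4, 30.5 kb for ACSL4 and 256 kb for SLC16A7. The nearest H2O2 summits were 1626 kb away for ACOX3, 133 kb for HMGCLL1, 24.8 kb for ACSM4, 46.2 kb for ACSL4 and 1.25 kb for SLC16A7. The CpG-rich promoter of ACSL4 and the CpG-poor promoter of ACSM4 carried no peak. Of all genes with a listed start, 0.0759% had a peak on a promoter window in the H2O2 + BHBNa list and 0.0126% in the H2O2 list. Absence at these promoters therefore tells nothing about CpG content. The HMGCLL1 start listed lies inside the span, and the strongest H2O2 + BHBNa peak of the gene was 75.1 kb upstream of it.

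Further genes of the same pathways, 55 in all and none of them members, take in the remaining enzymes of beta-oxidation and carnitine transfer, thioesterases, fatty acid binding proteins, lactate dehydrogenases, PPAR receptors, lactate and ketone receptors and carriers. None of the 55 held a peak in both lists, where genes of like length gave 1.08. None had a peak at q at or under 0.05, which 3.16% of all genes had in the H2O2 + BHBNa list and 0.766% in the H2O2 list. With values this low, counts of 0 tell little. At any q, 4 of the 55 held an H2O2 + BHBNa peak, where genes of like length gave 7.39, and 2 held an H2O2 peak, against 3.28. In the H2O2 + BHBNa list these were ACOT1, a cytosolic acyl-CoA thioesterase (fold 3.55, q of 0.0623, 3 fragments), PPARG, a lipid-sensing nuclear receptor (3.42, q of 0.121, 3 fragments), ACACB, which makes the malonyl-CoA that restrains CPT1 (2.72, 2 fragments), and LDHC, the testis lactate dehydrogenase (2.66, 2 fragments). In the H2O2 list they were ACOT13, a mitochondrial thioesterase (fold 4.14, q of 0.137, 7 fragments), and SLC5A12, a sodium-coupled lactate carrier of the kidney tubule (2.98, q of 0.494, 3 fragments). CPT2, which this list holds, had no peak in either list.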

How the data were processed

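The 2 treatments were compared as peak lists, each from 1 IP and 1 control library. The submitters' processing notes name MACS2 2.2.7.1, Bowtie2 2.4.2 and fastp 0.20.1 and the build GRCh38; no source used here gives their roles and settings. The authors deposited for a peak its score, its fold (a ratio of IP to background at the summit), and, as −log10 values, its q-value and p-value. The second file of each treatment held the same peaks, with starts counted from 0.

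Fragments (k) and background (b) at a summit were solved from fold = (k + 1)/(b + 1) and p = the Poisson chance of more than k; 100% of H2O2 + BHBNa and 99.95% of H2O2 peaks matched within 0.001 on the −log10 scale. Members and lists were chosen with earlier results of these data known. Every member with a peak is named, with the longest without one and the pathway genes with a peak; a few items are not reported here. For length, each member's 200 nearest non-member genes gave the expected share. Alternatives changed distance, peak limits, overlap and length matching. RefSeq promoter windows matched 50 members, and sequence at the peaks was not used here. Tools were scipy 1.17.1, pandas 2.3.3 and numpy 2.4.6 under Python 3.11.15, with statsmodels 0.14.6 for Wilson intervals and matplotlib 3.10.9 for figures, tested on simulated data. Intervals cover counting error only, and PCR copies are not independent molecules.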

Additional observations from a re-analysis of the deposited data

How the results depend on the processing

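No paired analysis was possible because each treatment had 1 IP library, and no replicate could be left out for the same reason. With peaks limited to q at or under 0.05, members with a peak numbered 2 in the H2O2 + BHBNa list and 2 in the H2O2 list, with 2 and 2 peaks, like-length values of 1.94 and 0.44, and 0 members in both. With at least 3 fragments required, the H2O2 + BHBNa list had 5 members and 6 peaks against a like-length value of 5.79, and 1 member was in both lists. These smaller counts follow from the stricter limits. The other 48 of 59 alternative values, which changed the distance to a gene, the use of the summit, shared genes, CPT2, length matching or overlap, stayed within 1.5 times the reported ones or, for median folds (3.59 in the H2O2 + BHBNa list with 3 or more fragments), within the 95% interval of the median. Like-length values ranged from 10.5 to 12 in the H2O2 + BHBNa list and from 5.06 to 5.57 in the H2O2 list under those settings. In the H2O2 + BHBNa list 6 of 12 member peaks rest on 2 fragments, and the part of depth in this was not tested.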

Other observations

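Letters of the promoter windows were counted on both strands as a description, in 79 windows of 50 members and 22035 windows of 15713 protein-coding genes, where a window shared by genes was counted once and windows of 1 gene can overlap. The members had a median of 21 CpGs per window, as had all genes. DR1, the PPAR element form with AGGTCA repeated after 1 base, was in 0 of 79 member windows and in 0.0227% of all. The element TCAAGGTCA was in 0 of 79 and in 0.245% of all. CACGTG was in 5.06% of member windows and 8.31% of all, TATAAA in 7.59% and 9.49%, and CCAAT in 17.7% and 34.7%. Windows of the 18 members with a peak and a listed start held CCAAT in 17.9% of cases and those of the 32 members without a peak in 17.6%. The ACSM4 window held TATAAA.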
